A study of Homo sapiens with 8 samples.

Results

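Chromatin accessibility was examined around 10 genes of the epithelial to mesenchymal transition: the epithelial genes CDH1, EPCAM and ESRP1, the transcription factor genes ZEB1, ZEB2, SNAI1, SNAI2 and TWIST1, and the mesenchymal genes CDH2 and VIM. These 10, of 20037 protein-coding genes, were taken from a list of symbols. For each gene the listed ATAC-seq peaks were taken in the gene body and 50 kb either side (GRCh38), with their position, width and rank within their own list. All 10 had at least 1 listed peak in at least 1 sample, and 18150 of the 20037 genes did.

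In an epithelial to mesenchymal transition, cells give up the junctions that hold an epithelium together and take on the shape and motility of mesenchymal cells. The factors of the ZEB, SNAI and TWIST families bind E-box sequences and repress epithelial genes such as CDH1, while the miR-200 microRNAs hold back ZEB1 and ZEB2. Carcinoma lines from the lung occupy many positions between the epithelial and the mesenchymal ends of this axis.

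The samples came from H1975 and HCC44, 2 human lines established from lung cancers and given the genotype WT in the labels. Each was kept for 96 h in DMSO, a solvent control, or in ACBI1 at a labelled dose of 1 mM. That unit is given only as labelled and may be a typing error, since degraders are usually used at far lower doses. ACBI1 is a bifunctional molecule that brings SMARCA2, SMARCA4 and PBRM1, subunits of SWI/SNF nucleosome remodelling complexes, to an E3 ubiquitin ligase for degradation. The 4 groups, H1975 with DMSO, H1975 with ACBI1, HCC44 with DMSO and HCC44 with ACBI1, had 2 replicates each, and the labels do not say whether replicates came from separate cultures. ATAC-seq uses a transposase to insert adapters into open chromatin, and a peak is an interval in which insertions exceeded the caller's background.

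The deposited lists differed in length with treatment. They held 41027 to 43525 peaks in H1975 with DMSO, 22133 to 27682 in H1975 with ACBI1, 49945 to 50347 in HCC44 with DMSO and 24862 to 26313 in HCC44 with ACBI1. The depth in reads is unknown, the weakest listed peak had a −log10 q of 10.04 to 10.21 in each list, and the smallest listed width ran from 163 to 286 bp. A gene without a listed peak is therefore not shown to be closed, and ranks are read only within a list. Of the markers for the labelled cell type, KRT8, KRT18, KRT19, CLDN4 and NAPSA had a peak at their start in all 8 samples, NKX2-1 in 5 (the 4 of H1975 and 1 of HCC44) and SFTPB in 0. Of the markers for other cell types, PTPRC, PECAM1 and CDH5 had none in any sample, PDGFRB had one in 1 sample, CD3E in 3 and COL1A1 in 8.

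The 10 windows differed widely in how many peaks they held. Per 100 kb of window in H1975 with DMSO, SNAI1 had 10.9 ± 0.668 peaks, EPCAM 7.65 ± 0, VIM 6.86 ± 0.647, CDH1 5.80 ± 0.357 and ESRP1 3.91 ± 0.425 (mean ± SD, n = 2). SNAI2 followed with 2.41 ± 0.681, ZEB2 with 1.70 ± 0.599, ZEB1 with 0.963 ± 0, TWIST1 with 0.956 ± 1.35 and CDH2 with 0.726 ± 0.205 (SD, n = 2). Each of the first 5 genes lay above the next in both replicates, whereas SNAI2 overlapped with ZEB2, and TWIST1 with ZEB2, ZEB1 and CDH2. In HCC44 with DMSO the order began with SNAI1 at 8.97 ± 0.668, EPCAM at 6.80 ± 0, CDH1 at 6.05 ± 0.713 and VIM at 5.94 ± 1.94 (SD, n = 2), of which CDH1 and VIM overlapped. The HCC44 order went on with SNAI2 at 3.37 ± 0.681, ZEB2 at 2.97 ± 0, ESRP1 at 2.11 ± 0.425, CDH2 at 1.16 ± 0, ZEB1 at 0.803 ± 0.227 and TWIST1 at 0 (SD, n = 2), with SNAI2 and ZEB2 overlapping. SNAI1 and EPCAM thus held peaks most densely with DMSO in both lines, and ZEB1, CDH2 and TWIST1 took the last 3 places.

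**Figure D1:**
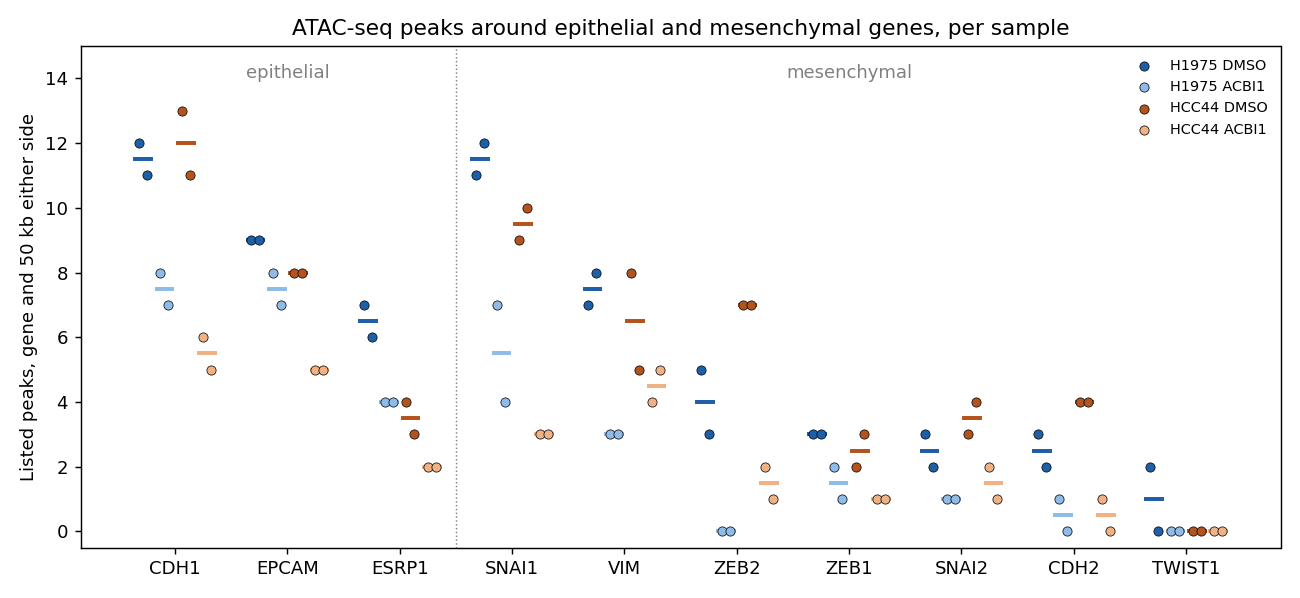
Number of listed ATAC-seq peaks (vertical axis) in the gene body and 50 kb either side of each of the 10 genes (horizontal axis). Each point is 1 sample, each short line the mean of the 2 replicates of a group, and colours give the line and treatment; CDH1, EPCAM and ESRP1 are the epithelial genes, and the ACBI1 points of each line lie below its DMSO points except at TWIST1 in both lines and VIM in HCC44.

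The first comparison set the lines side by side in DMSO. Around the epithelial genes, ESRP1 and EPCAM had fewer listed peaks in HCC44 than in H1975, and CDH1 had overlapping numbers, with a start peak that stood near the end of the HCC44 lists. Around the mesenchymal genes, ZEB2 and CDH2 had more listed peaks in HCC44, SNAI1 had fewer, and ZEB1, SNAI2, VIM and TWIST1 overlapped between the lines. With 2 samples against 2 an exact permutation test, two-sided, has 6 arrangements and cannot give a p under 0.333, so a difference is called here where both samples of one group lie beyond both of the other. By that rule 3 members had fewer peaks in HCC44, as did 17% of the 18150 genes, and 2 had more, as did 36.7%. The median difference, HCC44 minus H1975, was −0.75 peaks over the 10 genes and 0.5 over all 18150.

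ESRP1, whose protein directs epithelial splicing, spans chr8:94641174-94707466. Its window held 7 and 6 peaks in the H1975 DMSO samples and 4 and 3 in the HCC44 DMSO samples. Both HCC44 values lay below both H1975 values, with a difference of means of −3 against a pooled SD between replicates of 0.707. The lines also differed at its start. The 4 H1975 samples had a start peak, within 1 kb of an end of the gene, and no HCC44 sample had one. It was 3751 and 2255 bp wide with DMSO against 3462 and 908 bp with ACBI1. In replicate 2 of each treatment the region held 2 peaks, of 2875 bp in all with DMSO and 1379 bp with ACBI1. The stronger of the 2 is the one given. These H1975 peaks ranked at 42.8% and 45.3% of their lists with DMSO and 41.4% and 44.8% with ACBI1, where 0% is the strongest by −log10 q. The nearest listed signal in HCC44 was a 272 bp peak in DMSO replicate 1 at chr8:94642439-94642710, more than 1 kb into the gene. A start peak in both H1975 DMSO samples and in neither HCC44 DMSO sample was found for 1 of the 10 members and 2.93% of all genes tested, and the reverse for 0 members and 3.82% of genes. Further from the start, chr8:94623512-94623738 and chr8:94602291-94602491 had a peak in both H1975 DMSO samples and in neither HCC44 one.

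CDH1, which encodes E-cadherin of the adherens junction, spans chr16:68737292-68835537. Its window held 12 and 11 peaks in H1975 with DMSO and 13 and 11 in HCC44 with DMSO. These numbers overlapped, and the difference of means of 0.5 was smaller than the pooled SD of 1.12. The start peak was present in both lines at chr16:68737026-68738731 but stood at different places in the lists. Its −log10 q was 33.2 and 34.2 in H1975 with DMSO, at ranks of 59.9% and 59.5%. In HCC44 with DMSO it was 11.0 and 13.5, at ranks of 99.6% and 94.6%, close to the end of the lists. By covered length the CDH1 window was higher in both HCC44 samples, at 9208 ± 1306 bp against 6941 ± 1379 bp (SD, n = 2). The lists of the 2 lines differ in length, so the ranks give the place of the peak in each list and not a change in accessibility.

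Within the CDH1 gene the 2 lines also had peaks in neighbouring but separate regions. The region chr16:68778634-68779154 had a peak in both H1975 DMSO samples only, and chr16:68779291-68780146, which begins beyond its upper end, in both HCC44 DMSO samples only. A further region, chr16:68792671-68793554, was found in both HCC44 DMSO samples and in no H1975 sample. The window also overlaps CDH3, the P-cadherin gene, and a peak at chr16:68707136-68708075 inside CDH3 was listed in all 8 samples.

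EPCAM, a surface adhesion molecule of epithelial cells, spans chr2:47369311-47387020. It had 9 and 9 peaks in H1975 with DMSO and 8 and 8 in HCC44 with DMSO. The difference of −1 had no spread between replicates, but it is a single peak, and with a minimum fold of 5 or windows of 20 kb it was 0.5 in the other direction. The call also ended with a minimum −log10 q of 20 and in the gene body alone. Its start peak, chr2:47368965-47370169, was listed in all 8 samples and was 1195 and 1157 bp wide in H1975 and 937 and 942 bp in HCC44 with DMSO. It was narrower in both HCC44 DMSO samples, and ranked at 6.67% and 12.8% of the H1975 lists and 17.2% and 11.9% of the HCC44 lists. A region listed in 1 line alone was chr2:47339920-47340534, with a peak in all 4 H1975 samples and in no HCC44 sample.

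**Figure D2:**
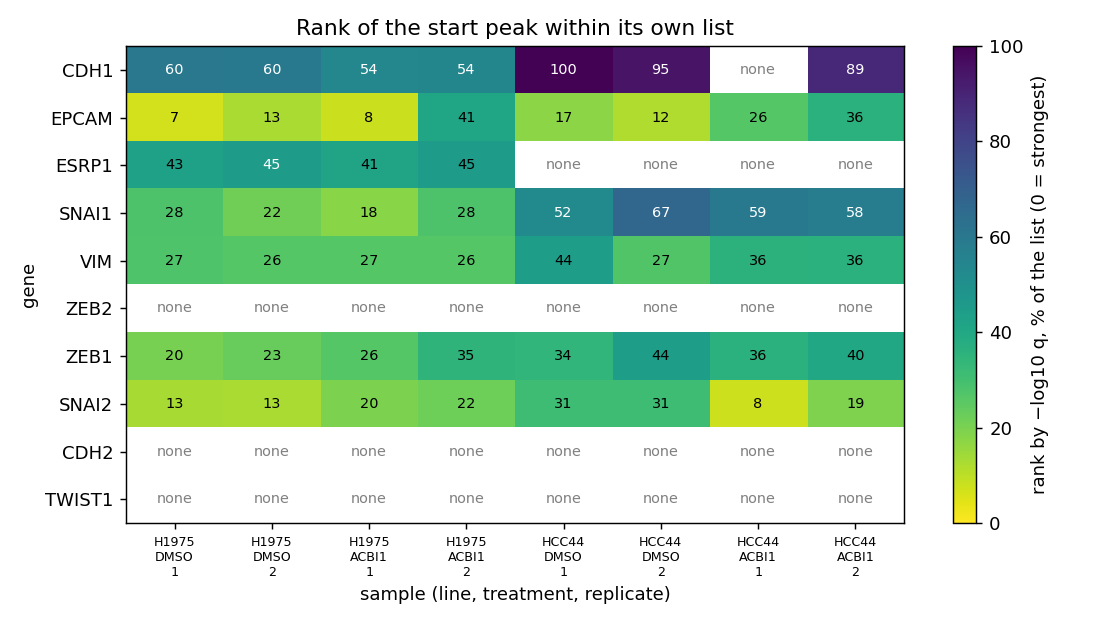
Rank of the strongest start peak of each gene (rows) within the peak list of each sample (columns), as a percent of the list by −log10 q, where 0 is the strongest peak and "none" means that no peak was listed within 1 kb of a start. ESRP1 has a start peak in the 4 H1975 samples only, CDH1 stands near the end of the HCC44 lists, and ZEB2, CDH2 and TWIST1 have none in any sample.

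Among the transcription factor genes, ZEB2 had the largest excess of peaks in HCC44. It encodes a zinc finger repressor of epithelial genes and spans chr2:144384081-144520119. It had 5 and 3 peaks in H1975 with DMSO and 7 and 7 in HCC44 with DMSO. Both HCC44 values were higher, by 3 peaks on average against a pooled SD of 1, and the length covered by peaks was higher too, at 4615 ± 132 bp against 1093 ± 475 bp (SD, n = 2). Regions at chr2:144459946-144460318, inside the gene, and chr2:144553376-144553729, outside it, were listed in both HCC44 DMSO samples and in no other sample. No sample had a peak within 1 kb of the annotated start. The nearest region, chr2:144516509-144517854, lay 2265 bp inside the gene and was listed in both DMSO samples of each line.

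ZEB1, the related factor, spans chr10:31318417-31529804 and differed little between the lines. It had 3 and 3 peaks in H1975 with DMSO and 2 and 3 in HCC44 with DMSO, which overlap. Its start peak was present in all 8 samples, 1306 and 1308 bp wide in H1975 with DMSO and 1427 and 2083 bp in HCC44 with DMSO. It ranked at 20.4% and 23.4% of the H1975 lists and 34.1% and 44.2% of the HCC44 lists.

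SNAI1, the Snail repressor, spans chr20:49982980-49988886. It had 11 and 12 peaks in H1975 with DMSO and 9 and 10 in HCC44 with DMSO, so that both HCC44 values were lower, by 2 on average against a pooled SD of 0.707. Near the lower end of the gene a peak at chr20:49982289-49983475 was listed in all 8 samples, at ranks of 27.9% and 21.9% in H1975 and 52.4% and 66.9% in HCC44 with DMSO. At the other end the lines differed. The region chr20:49987103-49988531 was listed in both H1975 DMSO samples only, and chr20:49989427-49990322 in both HCC44 DMSO samples only. One region at chr20:49935888-49937445 lies at the end of lower coordinate of RNF114 and was listed in all 8 samples.

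SNAI2, the Slug repressor, spans chr8:48917598-48921429 and had 3 and 2 peaks in H1975 with DMSO against 3 and 4 in HCC44 with DMSO, which overlap. Its start peak, chr8:48920069-48922093, was wider in HCC44, at 1930 and 1708 bp against 813 and 768 bp in H1975 with DMSO. The covered length of the SNAI2 window was higher in both HCC44 DMSO samples, at 2992 ± 147 bp against 1254 ± 286 bp (SD, n = 2). Regions at chr8:48870065-48870722 and chr8:48891569-48891912 were listed in both HCC44 DMSO samples and neither H1975 one, and chr8:48899167-48899602 in both H1975 DMSO samples and neither HCC44 one.

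TWIST1, a basic helix-loop-helix factor, spans chr7:19113047-19117636 and was nearly without peaks. Its window held 2 peaks in H1975 DMSO replicate 1 and 0 in each of the other 7 samples. Both of those peaks lay below the gene, at 12191 and 33739 bp from it. The gene lies in a stretch of 304.1 kb, between chr7:19100856 and chr7:19404914, in which no list had a peak.

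Of the mesenchymal structural genes, CDH2, which encodes N-cadherin, spans chr18:27932879-28177130. It had 3 and 2 peaks in H1975 with DMSO and 4 and 4 in HCC44 with DMSO, a difference of 1.5 against a pooled SD of 0.5. Both HCC44 samples were higher. The region chr18:28204167-28204614 was listed in both HCC44 DMSO samples and in no other sample. Neither annotated start had a peak in any sample, and the start at the upper end of the gene lay in a stretch of 88.7 kb without a peak in any list.

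VIM, the gene of the intermediate filament protein vimentin, spans chr10:17228241-17237593. It had 7 and 8 peaks in H1975 with DMSO and 8 and 5 in HCC44 with DMSO, which overlap. Its start peak was listed in all 8 samples at chr10:17227389-17230631, and was 2358 and 2373 bp wide in H1975 and 2406 and 3199 bp in HCC44 with DMSO. The covered length of the window was higher in both HCC44 DMSO samples, at 6525 ± 474 bp against 4889 ± 251 bp (SD, n = 2), although the mean number of peaks was lower by 1. All 4 DMSO samples thus had a start peak at VIM, a mesenchymal gene, and at CDH1 and EPCAM, epithelial genes.

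Promoter sequences, from 250 bases before to 50 after a start (RefSeq, GRCh38.p14), were matched for 4 of the 10 genes: ZEB1 with 7 starts, CDH2 with 2, and ZEB2 and VIM with 1 each. A promoter is shown for each of these genes to set 2 with a start peak, ZEB1 and VIM, beside 2 without, ZEB2 and CDH2. The last 2 were added after their peaks had been seen. Capitals mark CACCTG on either strand, so also CAGGTG, the E-box form that ZEB and SNAI factors bind. Of the ZEB1 starts, the one shown is that with the most matches, and sequences read 5′ to 3′ on the strand of the gene.
ZEB1 (chr10:31318966-31319265, plus strand): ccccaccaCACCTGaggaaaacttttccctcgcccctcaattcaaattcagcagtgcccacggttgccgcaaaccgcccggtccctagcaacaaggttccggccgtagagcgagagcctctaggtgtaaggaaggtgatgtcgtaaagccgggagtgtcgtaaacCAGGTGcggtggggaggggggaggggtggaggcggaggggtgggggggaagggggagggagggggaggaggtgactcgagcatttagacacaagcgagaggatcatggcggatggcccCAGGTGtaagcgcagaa
VIM (chr10:17227991-17228290, plus strand): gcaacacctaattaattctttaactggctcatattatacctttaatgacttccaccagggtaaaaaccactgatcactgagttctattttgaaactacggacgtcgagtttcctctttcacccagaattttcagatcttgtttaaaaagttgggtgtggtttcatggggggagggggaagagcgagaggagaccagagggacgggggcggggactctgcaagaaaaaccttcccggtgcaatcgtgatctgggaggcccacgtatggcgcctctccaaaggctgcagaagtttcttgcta
ZEB2 (chr2:144520070-144520369, minus strand): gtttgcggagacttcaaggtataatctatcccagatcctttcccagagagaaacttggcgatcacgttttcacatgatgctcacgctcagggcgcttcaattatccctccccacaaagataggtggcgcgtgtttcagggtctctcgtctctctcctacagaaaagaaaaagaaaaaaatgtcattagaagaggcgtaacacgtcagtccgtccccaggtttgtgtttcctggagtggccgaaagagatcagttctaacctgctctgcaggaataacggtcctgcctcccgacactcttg
CDH2 (chr18:28177081-28177380, minus strand): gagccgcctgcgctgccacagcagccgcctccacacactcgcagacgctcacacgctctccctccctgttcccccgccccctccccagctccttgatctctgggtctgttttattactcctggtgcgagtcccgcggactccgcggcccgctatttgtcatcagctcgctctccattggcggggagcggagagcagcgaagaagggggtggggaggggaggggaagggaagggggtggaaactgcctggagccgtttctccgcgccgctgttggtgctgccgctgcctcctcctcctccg
The ZEB1 window shown holds 3 matches and was overlapped by a peak in all 8 samples. The other ZEB1 windows hold 1, 0, 0, 0, 0 and 0. Of 22199 promoter windows of this length, 19.95% hold at least 1 match, a rate for single windows and not for the richest of 7. The VIM window, overlapped by a peak in 7 samples, and the ZEB2 and CDH2 windows, overlapped in none, hold 0. The GC content was 61.7% at ZEB1, 48% at VIM, 49% at ZEB2 and 67% at CDH2, against a median of 62.3% over all windows, so the pairs with and without a peak were not ordered by it. A match describes the letters and not a bound site.

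The next comparison set ACBI1 against DMSO within each line. In H1975, 9 of the 10 genes had fewer listed peaks with ACBI1, each ACBI1 sample lying below each DMSO sample, the exception being TWIST1, and 47.8% of all 18150 genes did. In HCC44, 8 of the 10 did, all but TWIST1 and VIM, and 60.8% of all genes. Those 8 genes had fewer in both lines, as did 37.5% of all genes, and no member had more peaks in either line, against 1.6% of genes in H1975, 1.97% in HCC44 and 0.182% in both. The median difference over the 10 genes was −2.25 peaks in H1975 and −2.5 in HCC44, and over all genes it was −1 and −1.5.

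The members' windows also held somewhat more peaks than most in DMSO, with a median of 5.25 in each line against 4.5 and 5 over all genes. Among genes with at least 2 peaks in both DMSO samples of a line, a background chosen after the data were seen, 9 of 9 members in H1975 and 8 of 9 in HCC44 had fewer peaks, against 54.7% and 68.2% of such genes. With the labels permuted within each line there are 36 arrangements. The exact permutation test, two-sided, gave p = 0.0556 for each of the 8 genes, the smallest p it allows, 0.111 for VIM and 1 for TWIST1, so none can pass 0.05.

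The ACBI1 lists were shorter than the DMSO lists, and most of these calls ended or turned when lists were made equally long. When each list was reduced to its 22133 strongest peaks by −log10 q, the length of the shortest list, 1 of the 10 genes in H1975 (SNAI1) and 2 in HCC44 (ZEB2 and CDH2) still had fewer peaks with ACBI1, against 12.4% and 14.2% of all genes. At equal numbers 2 had more in H1975 (CDH1 and EPCAM) and 3 in HCC44 (SNAI1, VIM and EPCAM), against 26.5% and 33.8% of all genes. No gene was lower in both lines at equal numbers. These counts compare places in a list, since the weakest peak kept had a −log10 q of 37.8 to 39.3 in H1975 with DMSO and 10.1 to 20.4 with ACBI1. In HCC44 it was 31.8 to 34.7 with DMSO and 13.7 to 15.4 with ACBI1.

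Other settings also shortened the list of calls. With a minimum −log10 q of 20, a minimum fold of 5, the gene body alone or windows of 20 kb, 4 or 5 of the 10 genes had fewer peaks in both lines. Leaving out 1 sample at a time gave 8 or 9, but under the rule used here that can add calls and cannot end one. The share of all genes called was not computed at these settings, so these counts have no background beside them.

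The calls between the lines in DMSO changed less at equal numbers. ZEB2 and CDH2 again had more peaks in HCC44, against 17.7% of all genes, and ZEB1, SNAI1, EPCAM and ESRP1 had fewer, against 24.5%. ESRP1 then had 4 and 3 peaks in H1975 and 1 and 1 in HCC44, and ZEB2 had 0 and 1 against 3 and 3. By covered length 5 genes were higher in HCC44 (ZEB2, SNAI2, CDH1, CDH2 and VIM) and 2 lower (EPCAM and ESRP1), against 66% and 14.3% of all genes, and the HCC44 lists covered 40.2 and 41.3 Mb against 30.46 and 26.95 Mb in H1975. The SNAI1 call ended by that measure, with a minimum fold of 5 and in windows of 20 kb, the CDH2 call in windows of 20 kb and in the gene body alone, and the ESRP1 call in the gene body alone. Leaving out a single sample cannot end a call under the rule used here, so it is no check on these 5, but it made others. HCC44 minus H1975 was called at 1.5 peaks for SNAI2 without replicate 1 of either line, at −2.5 for VIM without HCC44 replicate 1, at −1 for ZEB1 and 1.5 for CDH1 without HCC44 replicate 2, and at −2 for TWIST1 without H1975 replicate 2.

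Of the epithelial genes, CDH1 had 12 and 11 peaks with DMSO against 8 and 7 with ACBI1 in H1975, and 13 and 11 against 6 and 5 in HCC44. The groups did not overlap in either line, with differences of −4 and −6.5 against pooled SDs of 0.707 and 1.12. Its start peak was kept in both H1975 ACBI1 samples, with a −log10 q of 36.9 and 38.0. In HCC44 it was listed in ACBI1 replicate 2, with a −log10 q of 13.8, and in replicate 1 the nearest peak, chr16:68738301-68738656, began just over 1 kb from the gene's lower end.

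The 4 regions lost from the CDH1 window in H1975, listed in both DMSO samples and neither ACBI1 sample, and the 6 lost in HCC44 all lay inside the gene. Regions at chr16:68741856-68742971, chr16:68760722-68761142 and chr16:68790189-68790802 were listed in all 4 DMSO samples and in no ACBI1 sample. In contrast chr16:68704270-68704790, inside CDH3, was listed in both HCC44 ACBI1 samples and neither HCC44 DMSO one, and it was the only region around the 10 genes with this pattern in either line. In H1975 that region had a peak in DMSO replicate 1 and in both ACBI1 samples. At equal numbers of peaks CDH1 had 4 and 4 with DMSO against 6 and 7 with ACBI1 in H1975, and 4 and 5 against 5 and 5 in HCC44.

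EPCAM kept most of its peaks. It had 9 and 9 with DMSO against 8 and 7 with ACBI1 in H1975, and 8 and 8 against 5 and 5 in HCC44. All ACBI1 values lay below the DMSO values of their line, by −1.5 and −3 on average. In H1975 the call ended with a minimum −log10 q of 20 (−0.5), a minimum fold of 5 (−1) and windows of 20 kb (−0.5). In the gene body alone it ended in both lines, with differences of 0. The start peak was listed in every sample, and with ACBI1 was 1152 and 1139 bp wide in H1975 and 890 and 881 bp in HCC44. The region chr2:47360955-47361284, below the gene, was listed in all 4 DMSO samples and in no ACBI1 sample, while chr2:47323034-47323704, also below the gene, was listed in all 8. At equal numbers EPCAM had more peaks with ACBI1 in both lines, with 5 and 6 against 8 and 7 in H1975 and 4 and 4 against 5 and 5 in HCC44.

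ESRP1 had 7 and 6 peaks with DMSO against 4 and 4 with ACBI1 in H1975, and 4 and 3 against 2 and 2 in HCC44. The groups did not overlap, with differences of −2.5 and −1.5 against a pooled SD of 0.5 in each line. With a minimum −log10 q of 20 the HCC44 difference was 0, and by covered length the H1975 groups overlapped. With ACBI1 the contrast between lines remained, since ESRP1 had a start peak in both H1975 samples and in neither HCC44 one. Peaks in both HCC44 ACBI1 samples were fewer than in both H1975 ACBI1 samples for CDH1, EPCAM, ESRP1 and SNAI1, 4 of 10 against 16.4% of all genes, and more for ZEB2 and VIM, 2 of 10 against 17.7%.

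**Figure D3:**
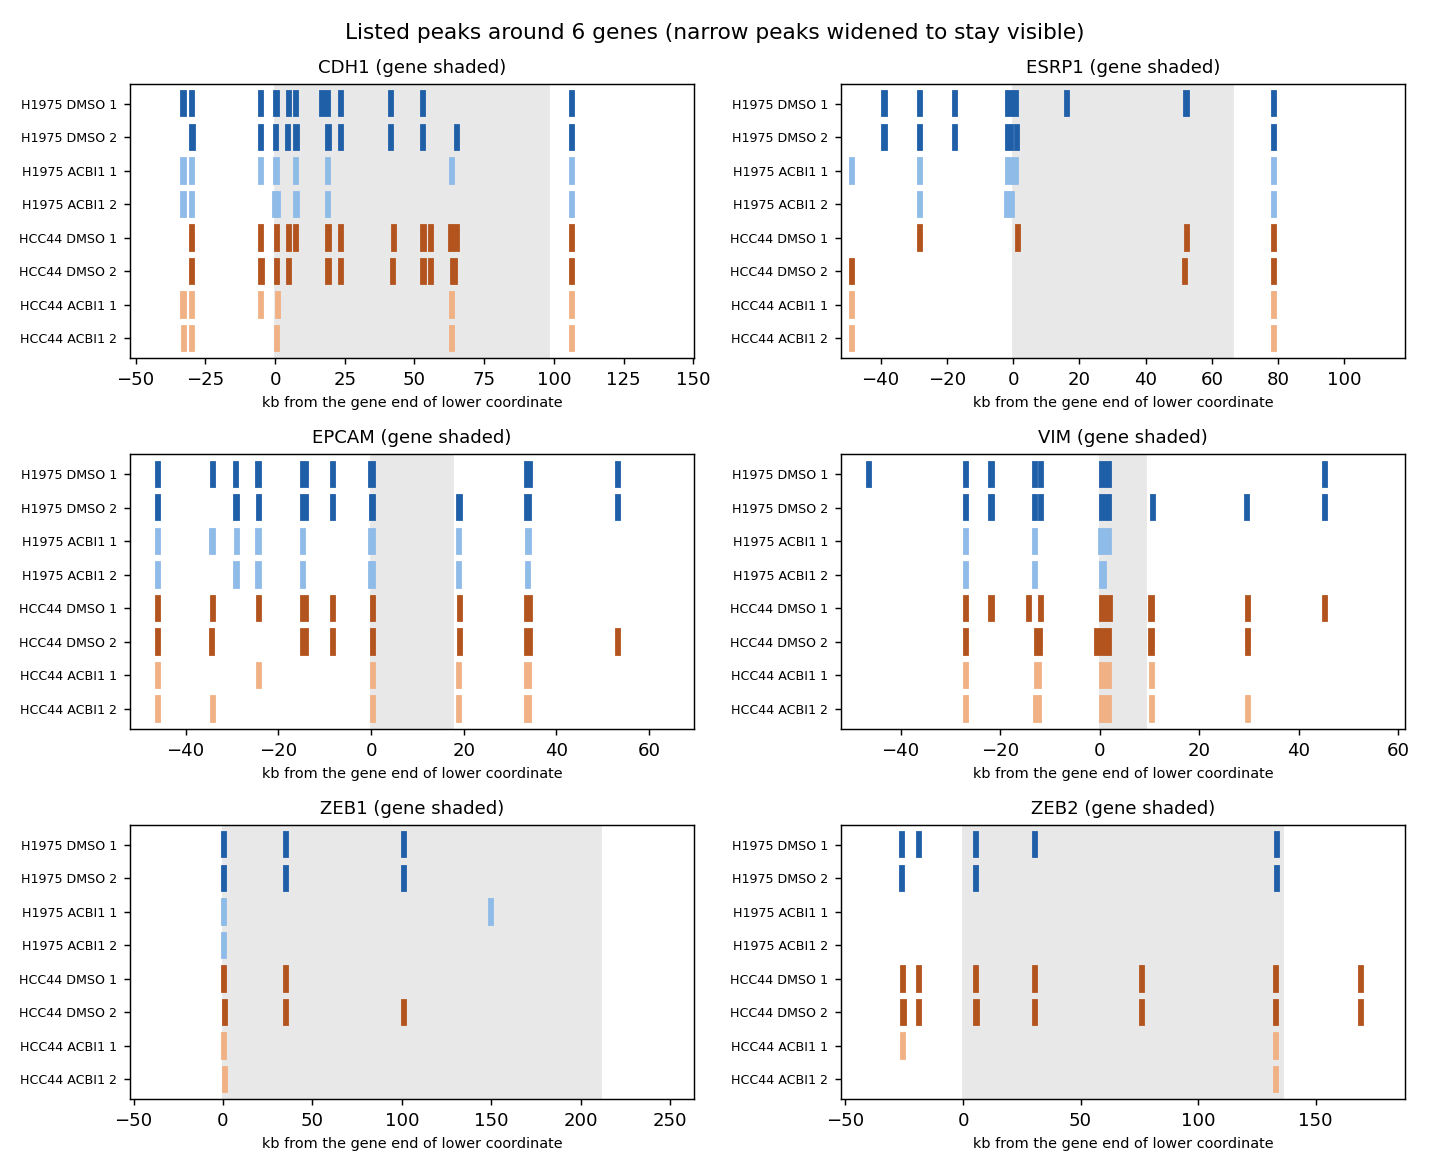
Position of each listed peak (bars) along the windows of 6 genes, in kb from the gene end of lower coordinate, with 1 row per sample and the gene body shaded; narrow peaks are widened to stay visible. Peaks at the starts of CDH1, EPCAM, VIM and ZEB1 recur down the rows, the ESRP1 start has peaks in the H1975 rows, and the ZEB2 rows of H1975 with ACBI1 are empty.

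Of the transcription factor genes, ZEB2 had no listed peak in H1975 with ACBI1. It had 5 and 3 peaks with DMSO against 0 and 0 with ACBI1 in H1975, and 7 and 7 against 2 and 1 in HCC44. The differences were −4 and −5.5, against pooled SDs of 1 and 0.5. Of the 3 regions listed in both H1975 DMSO samples, 3 had no peak in either ACBI1 sample, and of 7 in HCC44, 5 had none. The region chr2:144516509-144517854, nearest to the start, was listed in both HCC44 ACBI1 samples and in neither H1975 one. The region chr2:144389510-144389938, near the other end of the gene, was listed in all 4 DMSO samples and no ACBI1 sample. At equal numbers ZEB2 had 3 and 3 against 2 and 1 in HCC44, and 0 and 1 against 0 and 0 in H1975.

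ZEB1 had 3 and 3 peaks with DMSO against 2 and 1 with ACBI1 in H1975, and 2 and 3 against 1 and 1 in HCC44. Each ACBI1 sample held its start peak, 1293 and 1265 bp wide in H1975 and 1209 and 2088 bp in HCC44 with ACBI1. The other ACBI1 peak, in H1975 replicate 1 at chr10:31468189-31468514, was listed in no other sample. The region chr10:31353124-31353912, 35.1 kb into the gene, was listed in all 4 DMSO samples and in no ACBI1 sample.

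SNAI1 had 11 and 12 peaks with DMSO against 7 and 4 with ACBI1 in H1975, and 9 and 10 against 3 and 3 in HCC44. These were differences of −6 and −6.5 against pooled SDs of 1.58 and 0.5. Its lower-end peak was listed in all 4 ACBI1 samples, whereas the upper-end regions listed in DMSO in only H1975 or only HCC44 were listed in none of them. Regions at chr20:50033761-50035049 and chr20:49968702-49970276, on either side of the gene, were listed in all 4 DMSO samples and in no ACBI1 sample. At equal numbers of peaks SNAI1 went opposite ways, with 7 and 7 against 5 and 4 in H1975 and 1 and 1 against 2 and 3 in HCC44.

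SNAI2 had 3 and 2 peaks with DMSO against 1 and 1 with ACBI1 in H1975, and 3 and 4 against 2 and 1 in HCC44. Its start peak was listed in all 4 ACBI1 samples, at ranks of 19.6% and 22.0% in H1975 and 7.61% and 19.3% in HCC44. At equal numbers SNAI2 had 1 peak in all samples but HCC44 ACBI1 replicate 1, which had 2. TWIST1 had 0 peaks in all 4 ACBI1 samples, against 2 and 0 in H1975 and 0 and 0 in HCC44 with DMSO, so its groups met at 0. Without H1975 DMSO replicate 2 the H1975 groups were apart, by −2.

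CDH2 had 3 and 2 peaks with DMSO against 1 and 0 with ACBI1 in H1975, and 4 and 4 against 1 and 0 in HCC44. The differences were −2 and −3.5 against pooled SDs of 0.707 and 0.5. The region chr18:28114403-28115502, inside the gene, was listed in all 4 DMSO samples and no ACBI1 sample. At equal numbers of peaks CDH2 had 2 and 2 against 0 and 0 in HCC44, and 0 and 1 against 0 and 0 in H1975, where the groups met.

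VIM had 7 and 8 peaks with DMSO against 3 and 3 with ACBI1 in H1975, and 8 and 5 against 4 and 5 in HCC44. The H1975 groups were apart, by −4.5 against a pooled SD of 0.5, and the HCC44 groups met at 5 peaks. Without HCC44 DMSO replicate 2 or ACBI1 replicate 2 they were apart, by −3.5 and −2.5, and they were apart by −2 with a minimum −log10 q of 20 or a minimum fold of 5. Its covered length in HCC44 was nonetheless lower in both ACBI1 samples, at 5360 ± 513 bp against 6525 ± 474 bp (SD, n = 2). Of the 5 VIM regions listed in both HCC44 DMSO samples, 4 were listed in both ACBI1 samples and 0 in neither. In H1975, 3 of 6 were listed in both ACBI1 samples and 3 in neither. Regions at chr10:17227389-17230631, over the start, chr10:17215053-17216773, and chr10:17200933-17201789, at the end of higher coordinate of TRDMT1, were listed in all 8 samples.

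Most start peaks of these genes were listed with both treatments. Of the members with a start peak in both DMSO samples, 7 of 7 in H1975 and 5 of 6 in HCC44 had it in both ACBI1 samples, the sixth being CDH1. Over all genes with a start peak in both DMSO samples, 95.9% in H1975 and 92.9% in HCC44 kept it. A start peak in both DMSO samples was found for 66.2% and 67.3% of the 18150 genes. ZEB1, SNAI1, SNAI2, VIM and EPCAM had one in all 8 samples, and with CDH1 and ESRP1 7 of the 10 had one in at least 1 sample, against 73.4% of the 18150 genes.

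When the peaks of each line were merged into regions, 49 regions around the 10 genes were listed in both H1975 DMSO samples and 50 in both HCC44 DMSO samples. A region with no peak in either ACBI1 sample is called lost. In H1975, 46.9% were lost, and 37.2% of all regions. The shares missing from single ACBI1 replicates were 46.9% and 55.1% (SD 5.77, n = 2), and such shares cannot lie below the share lost. In HCC44, 52% were lost, and 49.2% of all regions. There the shares missing from single ACBI1 replicates had an SD of 2.83 (n = 2). At equal numbers of peaks 6 of 22 regions were lost in H1975, 27.3%, and 8 of 17 in HCC44, 47.1%, against 21.2% and 35.9% of all regions. At the starts of the 10 genes 1 of 8 regions was lost in H1975 and 1 of 7 in HCC44, and in each line that was an upper-end region of SNAI1. Either end of SNAI1 was read as a start, and the region at its lower end was listed in all 8 samples. At either end of other genes 0 of 5 and 0 of 6 were lost. Elsewhere in the windows 22 of 36 and 25 of 37 were lost, 61.1% and 67.6%. Over all regions, split in the same way, 3.36% and 6.57% of those at starts were lost, 24.4% and 37.7% of those at other gene ends, and 52.1% and 64.8% of those elsewhere, so the order of starts and other places was that of the whole lists. The lost regions were narrower, with a median width of 421 bp against 977 bp for retained ones in H1975, and 588 against 1222 bp in HCC44. Over all regions the medians were 389 against 995 bp and 592 against 1134 bp, so this was common to all regions. The ACBI1 lists were shorter, and whether narrow peaks fell below the limit of listing was not tested.

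**Figure D4:**
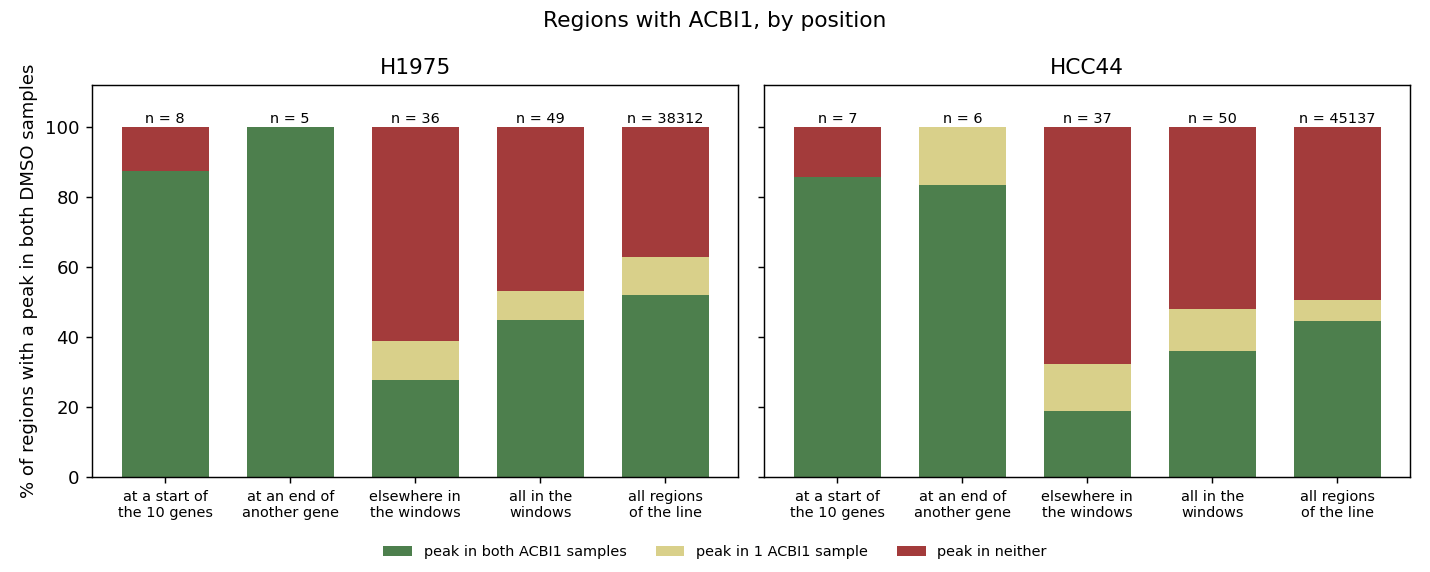
Percent of the regions listed in both DMSO samples of a line (vertical axis) that were also listed in both, in 1 or in neither ACBI1 sample, by position within the windows of the 10 genes and for all regions of the line; n gives the number of regions. Regions at starts, which for 6 genes means at either gene end, were lost in 12.5% of cases in H1975 and 14.3% in HCC44. In each line the lost one lay at the upper end of SNAI1. Regions elsewhere in the windows were lost in 61.1% and 67.6%.

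Merged over all 8 lists, 80 regions lay around the 10 genes. Of the 48 with a peak in both DMSO samples of one line and in 0 or 2 of the other, 66.7% were shared by the lines, 14.6% were listed in H1975 only and 18.8% in HCC44 only, against 59.2%, 13.9% and 26.8% of all such regions. Of the 32 shared regions, 9 were listed in no ACBI1 sample of either line, a share near the 25.1% of all shared regions. They were 3 at CDH1, 2 at SNAI1 and 1 each at ZEB1, ZEB2, CDH2 and EPCAM. The 14 regions listed in all 8 samples comprised 6 at starts of the 10 genes, 5 at ends of neighbouring genes, and 3 others.

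The wider programme was followed with lists of 16 other epithelial and 15 other mesenchymal genes. Of the epithelial genes 15 had a peak in some sample, OCLN being without. With ACBI1, 10 had fewer peaks in H1975 and 14 in HCC44, 9 of them in both lines, and 0 had more, against 47.8%, 60.8% and 37.5% of all genes with fewer. GRHL2, an epithelial transcription factor gene, had 11 and 10 peaks with DMSO against 5 and 3 with ACBI1 in H1975, and 5 and 7 against 1 and 0 in HCC44. CDH3, whose window overlaps that of CDH1, had 18 and 14 against 10 and 9 in H1975 and 12 and 10 against 5 and 4 in HCC44. ELF3 had 11 and 11 against 9 and 6, and 8 and 8 against 4 and 4. EHF, the related ETS factor, had 6 and 5 against 3 and 1, and 9 and 10 against 5 and 4.

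Of the 15 mesenchymal genes, 8 had fewer peaks with ACBI1 in H1975 and 13 in HCC44, 7 of them in both lines, and 0 had more, which in H1975 is near the 47.8% of all genes, and in HCC44 and in both lines stands beside 60.8% and 37.5%. TGFBI, which encodes a matrix protein induced by TGF-beta, had 8 and 8 with DMSO against 5 and 6 with ACBI1 in H1975, and 11 and 11 against 3 and 3 in HCC44. SPARC, another matrix protein gene, had 8 and 6 against 2 and 2, and 6 and 5 against 2 and 2. MMP2, a gelatinase gene, had 7 and 7 against 3 and 2, and 6 and 6 against 3 and 3. AXL, a receptor tyrosine kinase gene, had 6 and 5 against 3 and 4, and 9 and 10 against 5 and 6. In both lists every call with ACBI1 was thus toward fewer peaks, as were most calls over all genes, and these counts were made at the full length of each list.

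Between the lines in DMSO the 15 epithelial genes split evenly, with 6 fewer and 6 more peaks in HCC44, and the 15 mesenchymal genes had 3 fewer and 5 more, against 17% fewer and 36.7% more of all genes. GRHL2, OVOL1 and ST14 had a start peak in both H1975 DMSO samples and in neither HCC44 DMSO sample, as did 2.93% of all genes, and no epithelial gene had the reverse, as did 3.82%. Of the mesenchymal genes PRRX1 and SPARC had it in H1975 only and MMP2 in HCC44 only. Start peaks of the epithelial list were present in both DMSO samples for 13 genes in H1975 and 10 in HCC44, and 12 and 7 of these had them in both ACBI1 samples, against 95.9% and 92.9% of all such genes. In HCC44 the start peaks of OVOL2 and CLDN7 were in neither ACBI1 sample.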

How the data were processed

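Peak lists of 8 ATAC-seq samples were used, 1 per sample and 2 per group. Per the submitters' processing notes, BWA and hg38 were used; the peak caller, its filters and the read depth are not given in the sources used here. Per the labels' protocols, libraries had 11 PCR cycles. The lists have 9 columns without a header. The fold enrichment of each peak is the authors' deposited ratio, and its p-value and q-value were deposited by the authors as −log10 values; all were used only to rank or filter within a list. Counts are of listed peaks overlapping a gene plus 50 kb either side, with gene positions from a RefSeq table of GRCh38.p14. A start was that of the RefSeq promoter table for 4 members and, for the other 6, either gene end, 1 kb either side. Exons and introns were not analysed here. Differences were called where groups did not overlap and tested by exact permutation, two-sided, with labels permuted within lines; such p-values measure only the spread between these samples, which may be technical. Peaks overlapping by 1 bp were merged into regions. All 10 members were named, with, per gene, start regions and up to 2 of each class (particular to a line, lost in both lines, in all 8 samples), widest first, and up to 4 genes per further list called lower in both lines or differing by 5 peaks between lines; chr2:144516509-144517854, chr16:68760722-68761142 and the equal-number values were named after being seen. The members and lists were chosen with earlier results of these data known. Alternatives were a minimum −log10 q of 20, a fold of 5, equal numbers of peaks, joining peaks within 1200 bp, other windows, covered length, 50% cover, a replicate block and leaving out each sample. Functions were tested on simulated data in Python 3.11.15 (scipy 1.17.1, pandas 2.3.3, numpy 2.4.6, matplotlib 3.10.9). A region at a neighbouring gene is not reported here.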

Additional observations from a re-analysis of the deposited data

How the results depend on the processing

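A replicate block and other settings were tried for the counts over the 10 genes and for each gene. A replicate block compares only same-numbered samples, so it can add calls but cannot end one, and it added none. With it, the counts of genes with fewer peaks with ACBI1 were 9 in H1975, 8 in HCC44 and 8 in both lines. Same-numbered samples share a number and a prefix of their titles, and whether they were handled together is unknown. The correlation of their deviations over 18150 genes was 0.105 in H1975 and 0.0446 in HCC44, which cannot settle it with 2 replicates per group. With a minimum −log10 q of 20 the count in both lines was 5, and 61.1% of HCC44 regions were lost. With a minimum fold of 5 that count was 4, start peaks were kept by 3 of 3 genes in H1975 and 1 of 1 in HCC44 (fewer had one with DMSO), 60% and 64.3% of regions were lost, and EPCAM differed by 0.5 between lines. At equal numbers of peaks the counts were 1, 2 and 0, and 27.3% and 47.1% of regions were lost. There the difference with ACBI1 in H1975 was 2.5 for CDH1, 0.5 for VIM, 2 for EPCAM and 0.5 for ESRP1. In HCC44 it was 1.5 for SNAI1, 0.5 for SNAI2, 0.5 for CDH1, 2 for VIM, 1 for EPCAM and 0.5 for ESRP1. In gene bodies alone the counts were 5 in HCC44 and 5 in both lines, with 1 gene higher and 1 lower in HCC44 than in H1975. In windows of 20 kb the count in both lines was 5 and 1 gene was higher in HCC44, while HCC44 minus H1975 was −1.5 for SNAI2 and 0.5 for EPCAM. By covered length 5 genes were higher in HCC44, VIM by 1636.5 bp. With 50% cover 53.1% and 58% of regions were lost, and without regions at ends of other genes, a choice made after seeing the data, 59.1% in HCC44. Leaving out 1 sample at a time gave 46.9% to 55.1% lost in H1975 and 54.5% to 60% in HCC44, where the full set gave 52%. With an ACBI1 sample left out, a region need be missing from only 1 sample to be lost. That loosens the criterion, so these are not ranges around the full values. Of 66 summary values under other settings 44 stayed close and 22 moved. A count was taken as close within a ratio of 1.5, and a percent within the SD between single ACBI1 replicates. By that rule the fall from 9 to 6 genes with fewer peaks in H1975, in gene bodies alone, was close. The 66 also include the replicate block, which could end no call. Shares of all genes with fewer peaks with ACBI1 were computed only for the main windows, at full list length and at equal numbers. The causes were not tested. Depth is unknown and limits which weak peaks are listed.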

Other observations

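The miR-200 microRNAs, which bind ZEB1 and ZEB2 messages, were looked at after the other results had been seen. Their mature sequences (RefSeq, GRCh38.p14) are shown with the seed, bases 2 to 8, in capitals, since the family falls into 2 groups by seed.
hsa-miR-200b-3p: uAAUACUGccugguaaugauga
hsa-miR-200c-3p: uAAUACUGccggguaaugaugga
hsa-miR-429: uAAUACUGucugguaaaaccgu
hsa-miR-200a-3p: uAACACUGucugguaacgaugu
hsa-miR-141-3p: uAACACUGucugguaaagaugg
The first 3 share the seed AAUACUG and the last 2 the seed AACACUG, and both groups have members in both loci. Around the locus of miR-200b, miR-200a and miR-429 (chr1:1167104-1169087), the window of 50 kb either side held 4 and 3 peaks in H1975 with DMSO, 4 and 3 with ACBI1, 11 and 9 in HCC44 with DMSO, and 8 and 10 with ACBI1. Within 5 kb of that locus there were 0 peaks in all 4 H1975 samples and 2 in each HCC44 sample. All HCC44 values lay above all H1975 values at both distances, and the treatments overlapped within each line. In windows of 50 kb either side, 36.7% of the 18150 genes had more peaks in both HCC44 samples with DMSO, and 17.7% with ACBI1. The HCC44 DMSO lists were also longer than the H1975 ones. The share with all HCC44 values above all H1975 values was not computed. Around the locus of miR-200c and miR-141 (chr12:6963699-6964191), the window held 7 and 9 peaks in H1975 with DMSO, 7 and 8 with ACBI1, 7 and 8 in HCC44 with DMSO, and 8 and 7 with ACBI1. Within 5 kb there was 1 peak in all samples but HCC44 ACBI1 replicate 1, which had 2. Here neither the lines nor the treatments were apart. No test was made of these values, and levels of the microRNAs were not analysed here.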
